A study of Mus musculus with 6 samples.

Results

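The insulin-like growth factor (IGF) system was followed through 10 genes, the ligands *Igf1* and *Igf2*, the receptor *Igf1r* and the binding protein genes *Igfbp1* to *Igfbp7*, taken by symbol from the 41786 genes counted in endometriosis-like lesions of mice. All 10 were found, and 9 of them passed the filter on low counts. The lesions were uterine pieces of 6-week-old GFP-positive female C57BL/6 donors sewn onto the body wall inside the peritoneum of wild-type females aged 8 weeks in the same stage of the cycle. Dosing began 3 days later and lasted 3 weeks, with vehicle in 3 libraries or oral niclosamide, an anthelmintic drug, at 200 mg/kg daily in the other 3, and tissue was taken in diestrus. The lesion was freed from recipient tissue before extraction, but the counts do not separate RNA of donor and recipient cells. Vehicle 1 was RNA pooled from 4 mice, and every other library came from 1 mouse, so the spread within the vehicle group is that of 1 pool and 2 animals.

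IGF-I and IGF-II are secreted peptides that bind the IGF1 receptor, a tyrosine kinase that signals through insulin receptor substrates, PI3 kinase and AKT and drives growth and survival. Binding proteins 1 to 6 hold the ligands outside the cell with high affinity, prolong their life and can block or deliver them, while IGFBP7 binds them only weakly. In the uterus, IGF-I is made mainly by stroma and mediates part of the growth response of the epithelium to estrogen, and IGFBP1 is a classical product of human decidua.

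Short cysteine stretches were looked for in the coding sequences of the binding proteins. Near the amino terminus, *Igfbp1* to *Igfbp5* and *Igfbp7* encode a stretch of any residue, cysteine, glycine, cysteine, cysteine, any 2 residues and cysteine; no such stretch was found in *Igfbp6*. The sequences below are these 8 codons from the GENCODE transcripts (GRCm38), printed to set *Igfbp2*, the member with the largest difference between groups, and *Igfbp7*, the most abundant, beside their relatives. Capitals mark cysteine codons.
Igfbp1: ggcTGTggcTGCTGCccgacaTGT
Igfbp2: ggcTGCggcTGCTGCtccgtgTGC
Igfbp3: ggcTGCggcTGCTGCctgactTGC
Igfbp4: ggcTGCggtTGTTGCgccactTGC
Igfbp5: ggcTGTggcTGCTGCatgactTGC
Igfbp7: gcgTGCgggTGCTGCccggtgTGT

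Of the 24 bases, 17 (*Igfbp1*, *Igfbp5*) or 18 (*Igfbp3*, *Igfbp4*, *Igfbp7*) were the same as in *Igfbp2*. The pattern used in the search fixed the cysteine and glycine residues, so these counts were partly set in advance and do not rank relatedness. Near the carboxy terminus, *Igfbp1* to *Igfbp6* encode cysteine, tryptophan, cysteine and valine, which was not found in *Igfbp7*. The codons read as follows, again with cysteine in capitals, and the sequence of *Igfbp2* is shared by *Igfbp3*, *Igfbp4*, *Igfbp5* and *Igfbp6*.
Igfbp1: TGCtggTGTgtc
Igfbp2: TGCtggTGTgtg

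Values per library are listed in the order of replicates 1 to 3. The libraries held 27797121 to 34797000 counted reads. Levels are given as CPM (counts per-million reads) on library sizes scaled by the trimmed mean of M values (TMM), and levels of different genes are compared only as CPM per kb of counted exon length. Transcripts of uterine tissue were detected: all 12 uterine epithelial and all 12 fibroblast and stroma markers passed the filter, as did *Hoxa10*, *Hoxa11* and *Pgr*. All 20 skeletal muscle and 12 macrophage markers passed it as well, so passing shows detection and not tissue make-up. Skeletal muscle is a tissue of the body wall, but the counts do not assign its transcripts to donor or recipient. Skeletal muscle genes summed to 6427 to 16761 CPM with vehicle and to 48514, 1236 and 16711 CPM in niclosamide 1 to 3. Niclosamide 1 and 2 thus lay above and below all vehicle libraries in this sum of muscle transcripts. In tissue RNA of this kind, fewer cells of a type and less RNA per cell cannot be told apart.

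*Igfbp7* was the most abundant member in all 6 libraries, at 517 CPM per kb ± 28.5 (SD, n = 3) with vehicle and 520 ± 99.3 with niclosamide. *Igfbp4* had the next highest mean, 239 CPM per kb ± 73.3 (SD over all 6 libraries), and its range did not meet those of *Igfbp7* above or *Igfbp6* below. In vehicle 3, however, *Igfbp2* was above *Igfbp4*, at 229 against 202 CPM per kb. *Igfbp6*, *Igfbp5*, *Igfbp3*, *Igfbp2* and *Igf1* came next, and each overlapped its neighbour in that order: the higher of any 2 neighbours by mean was higher in only 4 of the 6 libraries. *Igf1* was above *Igf1r* in 6 of 6 libraries, at 17.5 to 86.3 against 3.73 to 6.18 CPM per kb. *Igf1r* and *Igf2* (3.74 CPM per kb) again overlapped. *Igfbp1* had 0, 1 and 0 counts with vehicle and, with niclosamide, 1, 2 and 0 counts, where the upper limit that a count of 0 allows is 3 counts, or 0.0823 to 0.109 CPM, for counting error only. No fold is given for it. The decidual prolactin genes *Prl8a2* and *Prl3c1* had no count in any library. They were the only 2 of 11 decidual stroma markers without a count, and the other 9 passed the filter.

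**Figure D1:**
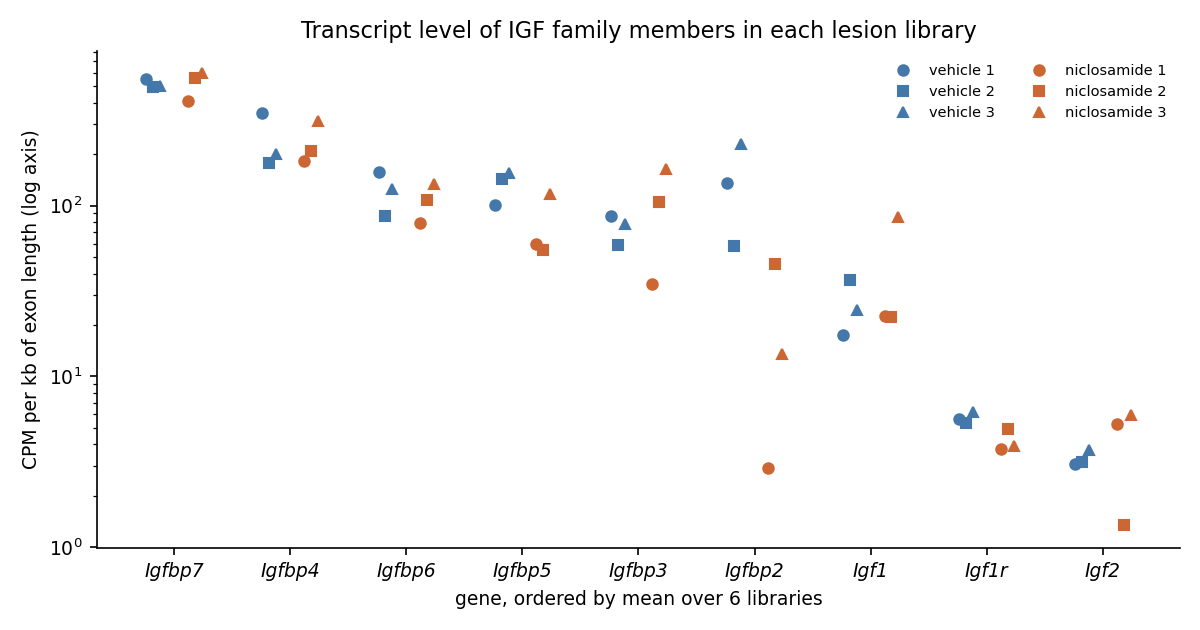
Level of each tested member in each library, as CPM per kb of exon length on a log axis, with vehicle in blue, niclosamide in orange and 1 symbol shape per replicate number. *Igfbp7* is highest in every library, *Igfbp2* spans the widest range and *Igf1* has 1 high value, in niclosamide 3; *Igfbp1*, at 0 to 2 counts per library, is not drawn.

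No member passed the test between the groups. With the quasi-likelihood test of edgeR, adjusted after Benjamini and Hochberg over all 17364 genes tested, 0 of 9 members had an adjusted p under 0.05, against 0 genes (0%) in all; at an unadjusted p under 0.05 there were 2 members (*Igf1r* and *Igfbp2*) and 1202 genes. DESeq2's Wald test called 176 genes (0.982% of those with an adjusted p), again with 0 members among them, and limma-voom called 0 genes. Of the 9 members, 4 had a log2 fold change (niclosamide over vehicle) above 0 and 5 below, with a median of -0.04, where all genes tested had a median of 0.02. All 3 niclosamide libraries lay below all 3 vehicle libraries in 2 members, *Igfbp2* and *Igf1r*, and above them in 0; over all genes tested these shares were 6.37% and 5.9%.

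**Figure D2:**
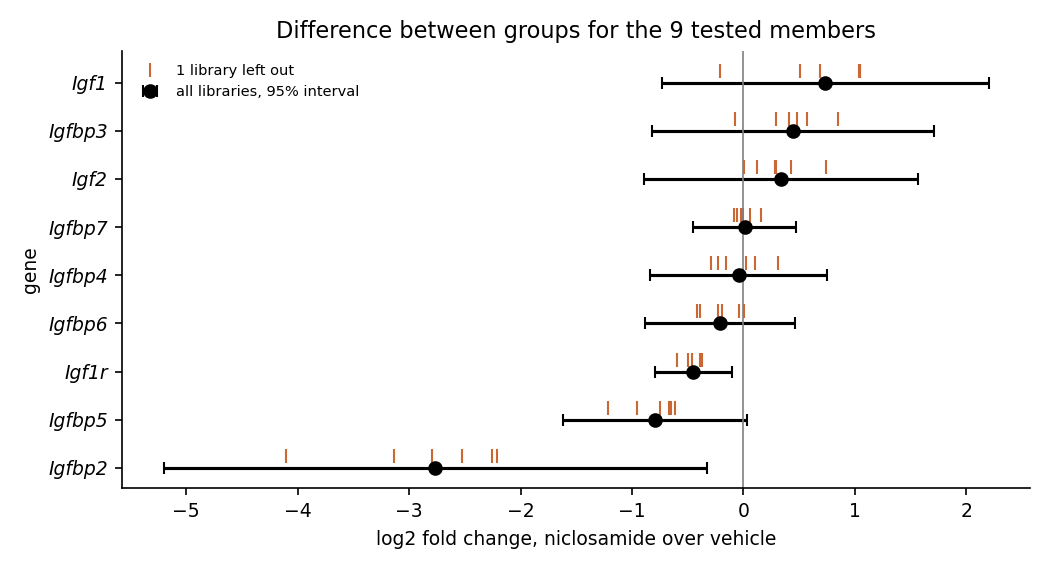
Log2 fold change of each tested member (niclosamide over vehicle, n = 3 per group) as points with 95% intervals from the quasi-likelihood fit, and the same value with each library left out in turn as orange ticks. *Igfbp2* lies farthest from 0 at -2.77 with the widest interval, and the ticks of *Igf1*, *Igfbp3*, *Igfbp4*, *Igfbp6* and *Igfbp7* fall on both sides of 0.

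Among the ligands, *Igf1* (chromosome 10, 87858270 to 87937047, plus strand) had 157, 331 and 219 CPM across the vehicle libraries and 202, 201 and 774 CPM in niclosamide 1 to 3. Niclosamide 3 was the highest of all 6 libraries, while the other niclosamide libraries lay within the vehicle range. The log2 fold change was 0.73 ± 0.61 (SE; 95% interval -0.73 to 2.20; adjusted p = 0.93, edgeR), and without niclosamide 3 it was -0.21. Macrophages also make IGF-I. The 12 macrophage markers summed to 5880, 3055 and 4056 CPM across the vehicle libraries and to 9441, 7202 and 4747 CPM in niclosamide 1 to 3; their part in the *Igf1* values was not tested. The genes whose profile over the 6 libraries was most like that of *Igf1*, by the root mean square difference of centred log2 CPM, were *Cttnbp2* (0.21), at 15.3 CPM in niclosamide 3 and lower in every other library, and *Klra4* (0.23), at 13.4 CPM there and 3.53 to 4.84 elsewhere.

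*Igf2*, an imprinted fetal growth factor gene (chromosome 7, 142650768 to 142662270, minus strand), had 14.4, 14.9 and 17.4 CPM with vehicle and 24.8, 6.30 and 27.7 CPM in niclosamide 1 to 3. The vehicle libraries lay close together, and the niclosamide libraries lay on both sides of them, at a ratio of highest to lowest of 4.40 against 1.21 with vehicle. The log2 fold change was 0.34 ± 0.51 (SE; 95% interval -0.90 to 1.57; adjusted p = 0.97, edgeR), 0.01 without niclosamide 3 and 0.74 without niclosamide 2. *H19*, the imprinted noncoding RNA gene 72.6 kb away, had 139, 170 and 195 CPM with vehicle and 512, 82.9 and 313 CPM in niclosamide 1 to 3, which puts niclosamide 2 lowest for both genes. Its log2 fold change of 0.85 ± 0.59 (SE) did not pass (edgeR quasi-likelihood adjusted p = 0.89), and was 0.23 without niclosamide 1. The summed skeletal muscle genes were also lowest in niclosamide 2 (1236 CPM). They were highest in niclosamide 1 (48514 CPM), as was *H19*, whereas *Igf2* was highest in niclosamide 3. In niclosamide 3 the muscle sum lay inside the vehicle range, while *Igf2* and *H19* lay above all vehicle libraries. The part of skeletal muscle in the *Igf2* and *H19* values was not tested. The nearest profiles to *Igf2* were those of *Gamt*, a creatine synthesis enzyme gene (difference 0.13), and *Fndc5*, which encodes the precursor of irisin (0.14; 5.28 CPM in niclosamide 2 and 12.4 to 27.1 in the others). The antisense gene *Igf2os* shares 98 exon bases with *Igf2* on the other strand and had 2 to 7 counts per library; the counting used strand.

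Among 20 tested imprinted genes, 12 had a log2 fold change above 0 and 8 below, 0 passed the test, and the median was 0.10. The list was drawn up with *Igf2* in mind and includes *H19*, *Igf2r* and *Grb10*. *Mest*, a gene of fetal mesoderm, had 8.82, 15.4 and 17.6 CPM with vehicle and 12.1, 15.6 and 77.1 CPM in niclosamide 1 to 3, so that it shared its single high library with *Igf1*.

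The receptor gene *Igf1r* (chromosome 7, 67952257 to 68233668, plus strand) had 68.7, 65.5 and 75.5 CPM with vehicle and 45.6, 60.1 and 47.9 CPM in niclosamide 1 to 3. Every niclosamide library lay below every vehicle library, and the closest pair of values was 60.1 and 65.5 CPM. The log2 fold change was -0.45 ± 0.14 (SE; 95% interval -0.80 to -0.10), which is 0.733-fold, and it ranged from -0.59 to -0.38 with any 1 library left out. With an unadjusted p of 0.019 it ranked 511th of 17364 genes in the quasi-likelihood test across all genes, and its adjusted p was 0.64 (0.26 to 1 over the alternatives). The nearest profiles, *Pelo* and *Slc22a23*, differed from it by a root mean square of 0.05 log2 units each.

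The other receptors and carriers gave 0 calls among 10 tested genes, 4 above and 6 below 0, and their log2 fold changes had a median of -0.12. *Igf2r*, which clears IGF-II from the cell surface, averaged 179 CPM in the vehicle and 167 CPM in the niclosamide group, a log2 fold change of -0.10 ± 0.17 (SE), and the insulin receptor gene *Insr* 91.5 and 82.9 CPM, a log2 fold change of -0.14 ± 0.19. *Ghr*, the growth hormone receptor gene, had 59.1 to 88.9 CPM with vehicle and 137, 59.7 and 67.0 CPM in niclosamide 1 to 3; its log2 fold change of 0.20 was -0.28 without niclosamide 1. *Igfals*, which encodes the acid-labile subunit of circulating IGF complexes, was near the lower end of detection at 0.154 to 1.39 CPM. *Insrr* (insulin receptor-related receptor) averaged 1.79 and 2.83 CPM and *Igfbpl1* 1.55 and 0.618 CPM. *Lrp2*, the endocytic receptor megalin, had 119 CPM in niclosamide 3 and 1.51 to 6.27 CPM in the other 5 libraries, and its log2 fold change of 3.68 was -0.61 without that library. The insulin and growth hormone genes (*Ins1*, *Ins2* and *Gh*) had at most 0.0628 CPM in any library.

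Among the 9 tested members, the widest spread and the largest difference belonged to *Igfbp2*, whose product is a binding protein of epithelia and of fetal tissues with a preference for IGF-II. The gene (chromosome 1, 72824480 to 72852474, plus strand) had 201, 85.8 and 338 CPM across the vehicle libraries and 4.28, 67.4 and 20.1 CPM in niclosamide 1 to 3. The groups did not overlap, the closest values being 85.8 CPM in vehicle 2 and 67.4 CPM in niclosamide 2. Within groups the highest library exceeded the lowest 3.95-fold with vehicle and 15.7-fold with niclosamide. The log2 fold change was -2.77 ± 1.01 (SE; 95% interval -5.20 to -0.33), or 0.147-fold, with an unadjusted p of 0.032 and an adjusted p of 0.67 in the edgeR quasi-likelihood test. Over the alternatives the adjusted p ran from 0.086 by DESeq2 to 1, and leaving out 1 library at a time gave log2 fold changes of -4.10 (without niclosamide 2) to -2.22 (without vehicle 3).

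The 12 uterine epithelial markers summed to 6536, 3156 and 4087 CPM across the vehicle libraries and to 722, 5517 and 1803 CPM in niclosamide 1 to 3. This is the same order as *Igfbp2* among the niclosamide libraries (lowest in 1, highest in 2) but not among the vehicle libraries. *Ltf* was the largest part of the sum, at 4544, 1994 and 3242 CPM with vehicle and 329, 3303 and 1025 CPM in niclosamide 1 to 3. Weighing the 12 markers alike, their mean log2 CPM was 7.24, 6.38 and 6.07 with vehicle. It was 4.77, 7.03 and 5.85 in niclosamide 1 to 3, so that vehicle 3, the highest library for *Igfbp2*, was the lowest of its group. Of these markers 11 of 12 had a log2 fold change below 0 (median -0.31, 0 called). The part of the epithelial content in the *Igfbp2* values was not tested. The nearest profiles were those of the monocarboxylate transporter gene *Slc16a14* (root mean square difference 0.63 log2 units) and *Mmp7*, the epithelial matrilysin gene (0.66), over a range of 6.28 log2 units in *Igfbp2* itself. *Mmp7*, which can also cleave IGF binding proteins, had 289, 117 and 242 CPM with vehicle and 11.8, 160 and 46.1 CPM in niclosamide 1 to 3, with overlapping groups.

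**Figure D3:**
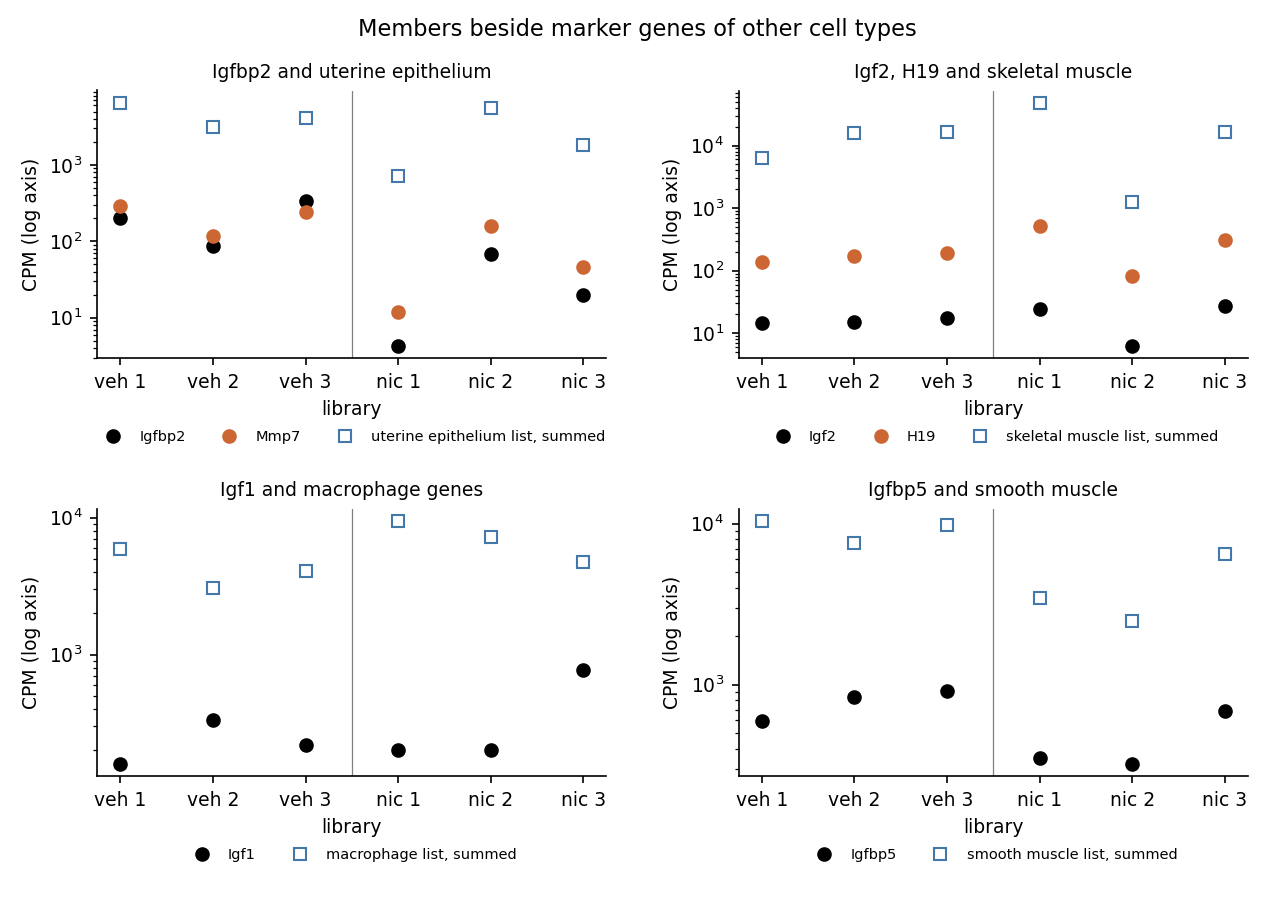
CPM in each library (log axes; veh, vehicle; nic, niclosamide) for *Igfbp2* and *Mmp7* with the summed uterine epithelial markers, *Igf2* and *H19* with skeletal muscle genes, *Igf1* with macrophage markers, and *Igfbp5* with smooth muscle genes. Niclosamide 1 is lowest for *Igfbp2* and the epithelial sum, niclosamide 2 is lowest for *Igf2*, *H19* and the skeletal muscle sum, *Igf1* is highest in niclosamide 3 and the macrophage sum in niclosamide 1.

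*Igfbp5* lies 5.6 kb from *Igfbp2* on the opposite strand (chromosome 1, 72858065 to 72874865), and its product binds matrix and is typical of stroma and smooth muscle. It had 594, 841 and 912 CPM with vehicle and 350, 320 and 682 CPM in niclosamide 1 to 3. Niclosamide 3 lay inside the vehicle range, and the other niclosamide libraries lay below it. The log2 fold change was -0.80 ± 0.34 (SE; 95% interval -1.62 to 0.03), or 0.576-fold, with an adjusted p of 0.74 (edgeR quasi-likelihood), and was -1.21 without niclosamide 3. The 12 smooth muscle genes summed to 10375, 7595 and 9794 CPM with vehicle and 3452, 2472 and 6470 CPM in niclosamide 1 to 3. Niclosamide 3 was again the highest of its group. Among the vehicle libraries the order differed, as vehicle 1 was lowest for *Igfbp5* and highest for the smooth muscle sum. All 12 genes had a log2 fold change below 0 (median -1.27, 0 called). The part of smooth muscle in the *Igfbp5* values was not tested. Its nearest profiles were *Kcp* (0.10), which encodes a BMP-binding secreted protein, and *Nrbp2* (0.11).

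*Igfbp3*, the main carrier of IGF in blood and a product of stroma and endothelium in tissue (chromosome 11, 7206086 to 7213931, minus strand), had 213, 144 and 191 CPM with vehicle and 85.2, 257 and 403 CPM in niclosamide 1 to 3. The niclosamide libraries surrounded the vehicle range. The log2 fold change of 0.44 ± 0.52 (SE; adjusted p = 0.96, edgeR quasi-likelihood) was 0.85 without niclosamide 1 and -0.08 without niclosamide 3. The 12 endothelial markers summed to 672 to 922 CPM with vehicle and 602 to 757 CPM with niclosamide, and their part in the *Igfbp3* values was not tested. *Igfbp1*, its neighbour at 3.5 kb (7197787 to 7202546), was the member at the floor. The nearest profile to *Igfbp3* was that of *Errfi1* (0.21), a feedback inhibitor of EGF receptor signalling, followed by *Paqr5* (0.25).

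The groups were alike in mean level in *Igfbp4*, *Igfbp6* and *Igfbp7*, though the intervals allow differences in both directions. *Igfbp4*, an inhibitory binding protein cut by the protease PAPP-A (chromosome 11, 99041260 to 99052646), had 723, 368 and 418 CPM with vehicle and 380, 435 and 650 CPM with niclosamide, a log2 fold change of -0.04 (95% interval -0.84 to 0.75) that was 0.31 without vehicle 1, the pooled library, and -0.29 without niclosamide 3. *Igfbp6*, which prefers IGF-II (chromosome 15, 102144186 to 102149512), had 203, 112 and 162 CPM against 102, 139 and 172 CPM (-0.21; interval -0.88 to 0.46), and 0.00 without vehicle 1. *Igfbp7*, abundant in vessels and stroma (chromosome 5, 77349240 to 77408045), was the steadiest at 667, 604 and 610 CPM against 495, 676 and 723 CPM (0.01; interval -0.45 to 0.47), and its value passed through 0 under 8 of 13 alternatives, between -0.09 and 0.15. The nearest profiles were *Nfil3* (0.10) and *Rhob* (0.12) to *Igfbp4*, the interferon-induced genes *Ifi27l2a* (0.11) and *Ifitm2* (0.12) to *Igfbp6*, and *Ptges3* (0.02) and *Rbbp4* (0.04) to *Igfbp7*. Adjusted p values of these 3 genes were 0.97 to 1 (edgeR quasi-likelihood).

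The make-up of the binding protein pool can be read per length within each library. *Igfbp7* took 39.8%, 48.7% and 38.9% of the summed CPM per kb of the 7 genes with vehicle and 53.1%, 51.6% and 44.6% with niclosamide. *Igfbp2* took 9.84%, 5.67% and 17.7% with vehicle and 0.377%, 4.22% and 1.02% with niclosamide. *Igfbp4* took 15.6% to 25.3% with vehicle and 19.4% to 23.9% with niclosamide, and *Igfbp6* 8.49% to 11.4% and 9.95% to 10.3%. The shares of *Igfbp2* did not overlap between the groups, while those of *Igfbp7*, *Igfbp4* and *Igfbp6* did. Summed over all 7 genes the level was 1023 to 1381 CPM per kb with vehicle and 768, 1080 and 1338 in niclosamide 1 to 3.

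**Figure D4:**
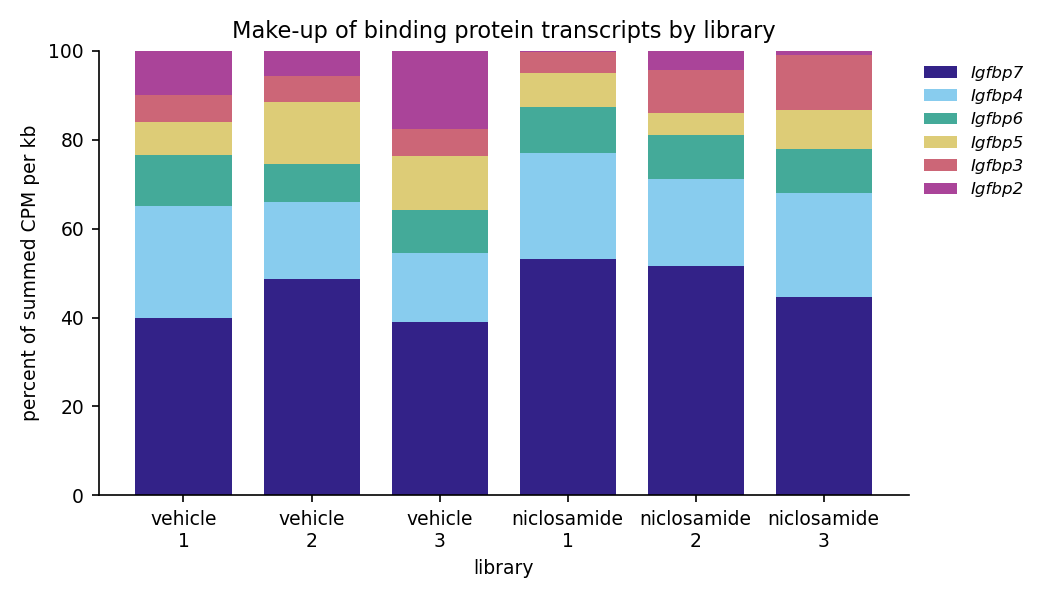
Share of each binding protein gene in the summed CPM per kb of *Igfbp1* to *Igfbp7*, in percent, 1 bar per library (*Igfbp1*, at most 0.00376%, is not visible). The *Igfbp2* share is 5.67% to 17.7% in the vehicle bars and 0.377% to 4.22% in the niclosamide bars, and *Igfbp7* is the largest block in every bar.

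Promoter windows of 250 bases before the transcription start were available from RefSeq (GRCm38.p6) for all 10 members, 14 windows in total. The windows printed here belong to the binding protein genes with the largest difference (*Igfbp2*), the highest level (*Igfbp7*) and no more than 2 counts in any library (*Igfbp1*), on the gene's strand, and their starts match the gene starts in the count files. Capitals mark the GC box GGGCGG on either strand or CAAAACAA, the core of the insulin response element described in *Igfbp1*, on either strand. TATAAA was searched on the gene's strand and is not in these windows.
Igfbp2, chr1:72824230-72824479, plus strand: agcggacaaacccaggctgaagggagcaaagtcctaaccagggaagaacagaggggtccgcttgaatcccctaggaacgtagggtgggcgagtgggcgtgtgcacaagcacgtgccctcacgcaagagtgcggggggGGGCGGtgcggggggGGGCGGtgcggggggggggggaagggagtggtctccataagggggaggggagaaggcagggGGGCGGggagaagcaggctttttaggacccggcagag
Igfbp7, chr5:77408046-77408295, minus strand: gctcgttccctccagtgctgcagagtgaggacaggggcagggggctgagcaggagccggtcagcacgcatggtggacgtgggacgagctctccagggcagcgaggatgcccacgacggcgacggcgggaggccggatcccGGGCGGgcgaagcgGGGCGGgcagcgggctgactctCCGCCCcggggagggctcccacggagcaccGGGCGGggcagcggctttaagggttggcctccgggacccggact
Igfbp1, chr11:7197537-7197786, plus strand: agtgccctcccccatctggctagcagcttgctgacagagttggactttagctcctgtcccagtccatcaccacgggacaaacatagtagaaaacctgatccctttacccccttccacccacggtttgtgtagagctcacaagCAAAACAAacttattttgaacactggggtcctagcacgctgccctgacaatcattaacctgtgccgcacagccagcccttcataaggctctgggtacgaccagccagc

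The printed *Igfbp2* window held 3 GC boxes, the *Igfbp7* window 4 and the *Igfbp1* window 0. Another *Igfbp2* window, before a different transcript start, held 0. In all, 5 of the 14 windows, which belong to *Igf1r*, *Igf2*, *Igfbp2* and *Igfbp7*, had at least 1, where 32.7% of all 32851 windows do. Some *Igf2* windows had none. CAAAACAA was found only in the *Igfbp1* window, 108 bases before the start, and is in 2.21% of all windows. TATAAA was found in 1 of the 14 windows, that of *Igfbp4*, 28 bases before the start, and in 7.59% of all windows. G and C made up 67.2%, 74% and 53.2% of the printed *Igfbp2*, *Igfbp7* and *Igfbp1* windows, against a median of 52.4% over all windows. In the other *Igfbp2* window they made up 56.4%. These are matches of letters and not measured binding, and CAAAACAA and the amino-terminal cysteine pattern were chosen after the sequences were seen.

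Proteases of the binding proteins and their inhibitors gave 0 calls among 12 tested genes, 5 above and 7 below 0, and their log2 fold changes had a median of -0.07. *Pappa*, which encodes PAPP-A, averaged 14.2 CPM in the vehicle and 14.8 CPM in the niclosamide group, and *Pappa2* 1.05 and 1.02 CPM. The stanniocalcins block these proteases: *Stc1* had 5.46 to 6.63 CPM with vehicle and 3.53, 15.4 and 8.11 CPM in niclosamide 1 to 3, and *Stc2* had 30.7, 42.0 and 31.3 CPM against 9.07, 57.8 and 7.33 CPM. Niclosamide 2 was the highest library for both. Without it, the log2 fold change of *Stc2* moved from -0.49 to -2.09 and that of *Stc1* from 0.59 to -0.05. *Htra3*, a serine protease gene of stroma and decidua, had 142, 132 and 161 CPM with vehicle and 80.9, 88.4 and 116 CPM with niclosamide. Its groups did not overlap, at a log2 fold change of -0.61 ± 0.17 (SE, edgeR quasi-likelihood adjusted p = 0.60). Of the 12 genes, 1 lay lower without overlap and 0 higher, where all genes tested had shares of 6.37% and 5.9%. *Htra1*, whose product cuts IGFBP5, averaged 132 and 107 CPM, with overlapping groups.

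Among 29 intracellular genes of the pathway, 12 were above and 17 below 0, 0 passed, and the median log2 fold change was -0.04 over a range of -0.61 to 0.15. *Irs1*, the adaptor between the receptor and PI3 kinase, had 67.0, 95.8 and 92.7 CPM with vehicle and 56.5, 36.5 and 74.9 CPM with niclosamide (-0.61 ± 0.28 SE; edgeR quasi-likelihood adjusted p = 0.77). *Irs2* averaged 8.22 and 7.35 CPM. *Foxo1*, a transcription factor that AKT excludes from the nucleus and that takes part in decidualization, had 97.8, 140 and 114 CPM with vehicle and 73.2, 94.9 and 84.5 CPM with niclosamide. Its groups did not overlap (-0.48 ± 0.18 SE, adjusted p = 0.67 by edgeR quasi-likelihood). Of the 29 genes, 1 lay lower without overlap and 0 higher, where all genes tested had shares of 6.37% and 5.9%. *Tsc2*, an inhibitor of mTOR complex 1, averaged 59.7 and 51.8 CPM, and *Grb10*, an imprinted adaptor that restrains the receptor, 185 and 180 CPM. The listed genes for PI3 kinase subunits (*Pik3ca*, *Pik3cb*, *Pik3r1*, *Pik3r2*), the 3 AKT kinases and mTOR had log2 fold changes between -0.29 and 0.13.

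The IGF2 mRNA binding proteins regulate *Igf2* and other messages and are mainly fetal. *Igf2bp3* had 0.838, 0.686 and 0.408 CPM across the vehicle libraries and 3.91, 2.25 and 1.34 CPM in niclosamide 1 to 3. All niclosamide libraries lay above all vehicle libraries, as in 5.9% of all genes tested, at a log2 fold change of 1.95 ± 0.51 (SE). It did not pass in the edgeR quasi-likelihood test (unadjusted p = 0.0075, adjusted p = 0.59), and DESeq2 called it higher (adjusted p = 0.034, where the other alternatives gave up to 1). *Igf2bp2* averaged 32.1 and 33.5 CPM, and *Igf2bp1* had at most 0.126 CPM in any library.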

How the data were processed

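RNA-seq of 6 lesion libraries was analysed. Reads over exons were assigned to gene symbols by the authors with featureCounts 1.4.6-p4 on STAR alignments, in the reverse-stranded mode, with the GRCm38.p3 annotation, per the file headers; the deposited values are whole-number counts, not normalized. The submitters' processing notes name STAR 2.4.2a, Trimmomatic 0.33 and edgeR 3.12.0. No exon base of a member is shared with another gene on the same strand.

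Here edgeR 4.0.16 (R 4.3.3) was run on all 41786 genes. filterByExpr (minimum count 10, minimum total 15) left 17364 genes, and *Igfbp1* was among those removed. TMM scaling and a robust quasi-likelihood fit with the group as its only term followed, with Benjamini-Hochberg adjustment over all genes tested and a threshold of 0.05. The SE was derived from the fold change and its F statistic, and gives the 95% intervals. DESeq2 1.42.0, limma-voom (limma 3.58.1), other scalings, other filters, a threshold of 0.10, a replicate block and leaving out each library were the alternatives. The fit was tested on simulated data. The p-values set the difference between groups against the spread within groups. That spread is one between single animals and, for vehicle, 1 pool.

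The members and gene lists were chosen with earlier results of these data known. Named were the 10 members, 15 set genes of the system, of each of 3 system lists the 3 genes with the smallest p, and per member the 2 genes (mean log2 CPM of at least 1) with the nearest profile, of which the report gives those it discusses. *Mest*, *Pgr*, *Hoxa10*, *Hoxa11* and other genes outside this rule were named after their values were seen.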

Additional observations from a re-analysis of the deposited data

How the results depend on the processing

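The count of members called was 0 under all alternatives, and the count over all genes was 0 except for 1 without a filter on low counts and 176 by DESeq2. With the replicate number as a replicate block 0 genes and 0 members were called. Deviations of same-numbered libraries correlated at -0.085, -0.087 and 0.266, and those of differently numbered libraries at -0.357 to 0.36. With 3 libraries per group these values cannot decide whether the numbers stand for a pairing, and the labels do not say. Members without overlap between groups numbered 2 under other scalings and 2 to 4 with 1 library left out (4 without niclosamide 1, where *Igfbp3* and *Igfbp7* joined; share of all genes then 21.2% against 12.3%). *Igfbp2*, *Igf1r* and *Igfbp5* stayed below 0 and *Igf2* above 0 under all 13 alternatives each, without a call.

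With 1 library left out, log2 fold changes turned sign in these genes, over the ranges -0.21 to 1.05 (*Igf1*), -0.079 to 0.85 (*Igfbp3*), -0.29 to 0.31 (*Igfbp4*), -0.41 to 0.0027 (*Igfbp6*), -0.086 to 0.15 (*Igfbp7*), -0.24 to 0.020 (*Igf2r*), -0.28 to 0.40 (*Ghr*), -1.42 to 0.29 (*Igfals*), -0.29 to 0.29 (*Pappa*), -0.41 to 0.34 (*Pappa2*), -0.055 to 0.97 (*Stc1*), -0.31 to 0.055 (*Irs2*), -0.32 to 0.14 (*Grb10*), -0.49 to 0.33 (*Igf2bp2*) and -0.61 to 4.58 (*Lrp2*). Values near 0 also turned with the replicate block (*Igfbp7* -0.0070, *Pappa* -0.0034, *Pappa2* 0.027, *Igf2bp2* -0.050), with limma-voom (-0.012, -0.0019, 0.0012 and -0.045 in the same order) and, for *Igfbp7*, with upper quartile scaling (-0.0030) or no filter (-0.0066). The cause was not tested. *Igfbp1*, *Igf2bp1*, *Ins1*, *Ins2* and *Gh* were at or near 0 counts, where very low expression and none cannot be told apart at this depth.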
